A study of Rattus norvegicus with 8 samples.

Results

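Cytosolic ribosomal protein genes were taken as the probes whose symbol in the authors' table of values starts with Rpl or Rps followed by a digit, or is Rplp0, Rplp1, Rplp2 or Rpsa, leaving out the Rps6k kinases. This rule found 104 of 23615 probes, carrying 69 of 14279 symbols. Of these, 59 probes (38 symbols) belonged to proteins of the large ribosomal subunit, 40 probes (26 symbols) to proteins of the small subunit, and 5 probes to the paralogs Rpl3l, Rpl7l1, Rpl22l1, Rpl36al and Rps27l. A probe was tested if it had at least 3 values in each group, which left 91 members (54 large, 32 small and 5 paralogs, together 64 symbols) among 23427 probes tested. No probe carried the symbol Rplp0, Rps3, Rpl10 or Rpl11.

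Each ribosome joins a small subunit, which reads the messenger RNA, to a large subunit, which forms the peptide bonds, and every ribosome needs its core proteins in fixed proportion. Their messenger RNAs begin with a 5′ terminal oligopyrimidine tract, a C followed by a run of pyrimidines, through which mTOR and the binding protein LARP1 control their translation. The liver makes most plasma proteins and so carries a large ribosome pool, and in the acute-phase response to endotoxin it shifts translation from one group of secreted proteins to another.

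Livers of 8 Sprague Dawley rats were measured on Agilent arrays with 2 channels, each liver in Cy5 against a pool of control livers in Cy3 on the same array. The labels put 4 rats in the group given lipopolysaccharide (LPS, a bacterial endotoxin), at 3 mg/kg intraperitoneally, and 4 rats in the control group. The labels describe the controls both as non-treated and as given 0.9% sodium chloride, place sampling at 24 h, call the replicates biological, and give no age. The column headers disagree, with day 2 for all, 0 mkd for controls, 100 mkd (Mid) for LPS array 1 and 1000 mkd (High) for LPS arrays 2 to 4. Within a group, array numbers follow the table's columns and were not taken from the labels' replicate numbers. Because dose and time are unsettled, the groups are called only LPS and control.

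Intensities were deposited in arbitrary units, with a smallest value of 0.00056, and array maxima in the liver channel lay between 46.8 and 58.5 units. Readings of dim members held 2 decimals. Hepatocyte transcripts were read on every array, with the transthyretin (Ttr) probe at 34.1 to 36.7 units, the apolipoprotein probes at 20.95 to 51.9 (Apoc3) and 9.58 to 30.15 (Apoa2), and the albumin (Alb) probes at 19.6 to 38.0, 13.9 to 38.7 and 0.48 to 2.82. Of 9 tested hepatocyte probes, 5 were called lower in ratio after LPS, with Alb 600519351R1, the dimmest Alb probe, at -1.91 and Apoa2 at -0.91. Another 2 were called higher, Serpina1 at 1.95 and Fga at 1.09. Summed over 15 hepatocyte probes, with blanks adding nothing, the groups overlapped, at 140.7 to 257.9 units in controls and 147.1 to 354.2 after LPS. Blanks were uneven, however. Of 144 bright probes of the whole table with a blank on some array, 68 to 132 were blank on each control array. On LPS array 1 85 were blank, and on LPS arrays 2 to 4 10 to 26. These hepatocyte sums therefore cannot compare hepatocyte RNA between the groups. Markers of some other cell types also differed between the groups: summed over 20 probes, neutrophil and monocyte markers measured 11.4 to 13.5 units in controls and 30.2 to 50.3 after LPS, those of T and NK cells (23 probes) 2.95 to 3.74 and 4.86 to 6.86, and those of Kupffer cells (7 probes) 13.3 to 18.7 and 5.47 to 8.81. Those of B and plasma cells (8 probes) overlapped, at 20.1 to 31.1 units in controls and 25.75 to 33.8 after LPS. In whole liver RNA, a change in the number of cells of a type and a change in RNA per cell cannot be told apart, and the part of these cells in the ribosomal protein values was not tested. The pool channel, too, split the arrays, with control array 1 and all LPS arrays in one set and control arrays 2 to 4 in the other, by clustering on the correlation of pool intensity.

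The sequences around the annotated transcription starts show which members carry the tract that gives these messages their name. The windows below hold 20 bases before and 10 bases from the RefSeq start (GRCr8), for the genes of the 10 largest rises and of both falls among the called probes and for Rplp1, another member with a tract on the start, with the longest run of at least 5 pyrimidines in capitals. Locations are chrX:102059429-102059458 (+) for Rpl36a, chr8:76443638-76443667 (+) for Rps27l, chr10:83272175-83272204 (-) for Rpl23, chr5:106420531-106420560 (-) for Rps6, chr1:172974553-172974582 (+) for Rpl27a, chr1:181860275-181860304 (-) for Rps15a, chr7:1643395-1643424 (-) for Rps26, chr7:113507981-113508010 (-) for Rpl3, chr16:96497-96526 (+) for Rps24, chr7:1563488-1563517 (-) for Rpl41, chr8:71290863-71290892 (-) for Rplp1 and chr20:4933725-4933754 (+) for Rps18.
Rpl36a: aggcaccgcctataaaCTTCCgttgctgct
Rps27l: ttatagtttattcatttgtcattatttgtg
Rpl23: cttgtactaaCTTCCTTTCTgactctttcc
Rps6: ttcgtgacgCCTCCTaggcggtcggctgtg
Rpl27a: cctcgcgagacttggtgggCTCCTCCCTCT
Rps15a: aaccccggcgTTTTCTTTCCacagtcacca
Rps26: gtcgggagagccgccgggTCCTCTTTCgag
Rpl3: ctgcaccagcgcctgctcgaTCTCTatcgg
Rps24: ggcagtgagcggTCCTCTTTTCCTCCTTTa
Rpl41: gaaggggcggctcggaagtgacgacaccaa
Rplp1: tgcgcgcaggcgcatgtgaTCCTTTCCTCa
Rps18: aactacacgtcacttccgCTCTCTCTTCCa

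In Rps26, Rplp1 and Rps18 a C followed by at least 4 pyrimidines stood exactly on the annotated start, whereas in Rps24, Rpl23, Rps15a and Rps6 the run began 8 to 11 bases before it. The windows of Rps27l and Rpl41 held no run of 5. Over all member promoters in the table (58 promoters of 57 genes), a C followed by 4 pyrimidines lay on the annotated start in 34.5%, against 3.92% of 51 promoters of mitochondrial ribosomal proteins and 2.63% of 33469 promoters of all genes. When the tract could begin within 10 bases of the start, the shares were 75.9%, 37.3% and 28.9%. The letters CCGGAA, searched on both strands over the whole promoter window, occurred in 50.0% of member promoters, 49.0% of the mitochondrial set and 14.95% of all. TATAAA before the start occurred in 8.62% of member promoters and 8.06% of all. These are matches of letters to an annotated start, which may differ from the start used in liver.

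The first question was whether ribosomal protein transcripts stood higher or lower, relative to the pool, in LPS livers than in controls. Most stood higher by a small and similar amount. Of the 91 tested probes, 48 were higher and 2 lower (limma, Benjamini-Hochberg adjusted p under 0.05 over all probes), and 41 did not pass; of all probes tested, 12.4% were called higher and 12.5% lower. The members' median difference (LPS minus control, log2 ratio of liver over pool) was 0.34, or 1.26-fold, beside -0.04 over all probes. In 48 members all LPS arrays lay above all control arrays and in 4 all lay below, beside 12.9% and 14.5% of all probes.

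Array by array, the median log2 ratio of the members with a value on every array (90 probes) was 0.00, 0.13, 0.04 and -0.06 on control arrays 1 to 4. It was 0.34, 0.45, 0.33 and 0.28 on LPS arrays 1 to 4. Each LPS array thus lay above each control array, LPS array 2 was the highest, and LPS array 1, whose header dose differs, lay inside the range of the other LPS arrays. Control array 2 was the highest control and control array 4 the lowest. Quantile normalization of the ratios between arrays reduced the members called higher to 13, beside 4.03% of all probes, with a median of 0.24.

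**Figure D1:**
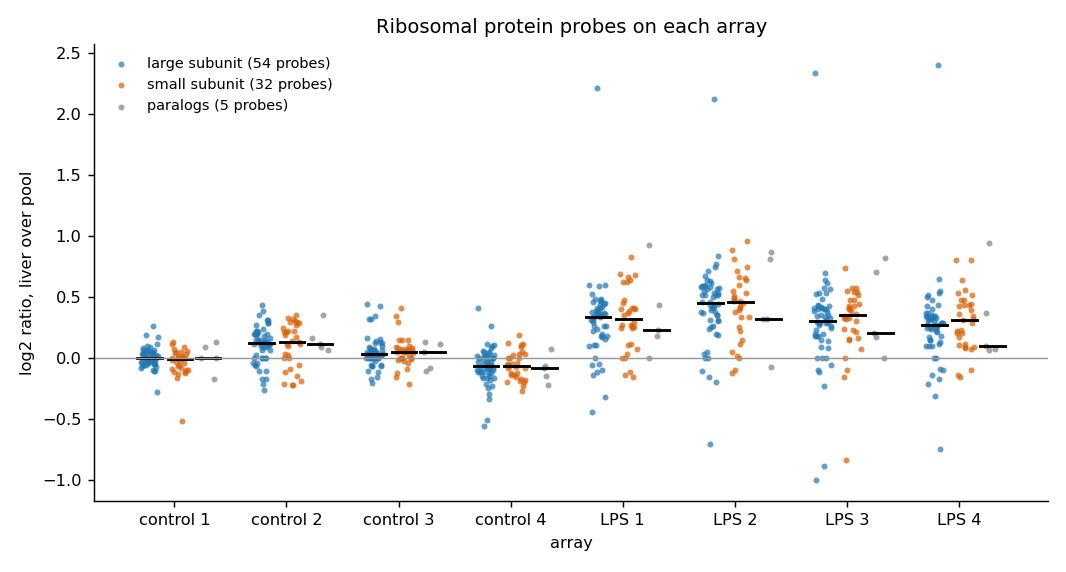
Log2 ratio of liver over pool (vertical axis) for each tested ribosomal protein probe on each of the 8 arrays (horizontal axis), in blue for the large subunit, orange for the small subunit and grey for paralogs, with a black bar at each median. The medians of both subunits lie between 0.27 and 0.46 on the LPS arrays and between -0.06 and 0.13 on the control arrays, and the single probe above 2 on every LPS array is Rpl36a.

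The subunits had nearly the same median difference. Among large subunit probes, 30 of 54 were called higher and 1 lower, with a median difference of 0.34. Among small subunit probes, 16 of 32 were called higher and 1 lower, with a median of 0.35. The large minus small difference of medians was -0.02, and on single arrays it ran from -0.04 to 0.01 with both signs among control and LPS arrays. With probes averaged per symbol it was 0.05, so its sign depended on the unit, and it was not tested. Among the 5 paralogs, 2 were called higher.

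By symbol, 36 of 64 had at least 1 probe called higher, 31 had every tested probe called higher, 27 had no called probe, and Rpl41 had probes called both ways. Of the 48 probes called higher, 45 had groups that did not overlap; the exceptions were a dim Rps20 probe and both Rpl23a probes. The share called higher was similar at each brightness above 0.2 units, with 6 of 9 members at 0.2 to 1 units and 16 of 27 at 1 to 10 units. Of the other probes at these levels, 17.8% and 22.5% were called higher. Of 44 probes with a mean of at least 10 units, 25 were called higher and none lower (median 0.36), while 490 other probes that bright had a median of -0.10, with 20.6% called higher and 32.7% lower. Among the 11 members under 0.2 units, 1 was called higher and 1 lower (median -0.03). These shares (9.09% each) were near the 7.07% and 8.01% of other probes that dim. At that level a step of 0.01 units in the deposited values moves the ratio visibly.

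**Figure D2:**
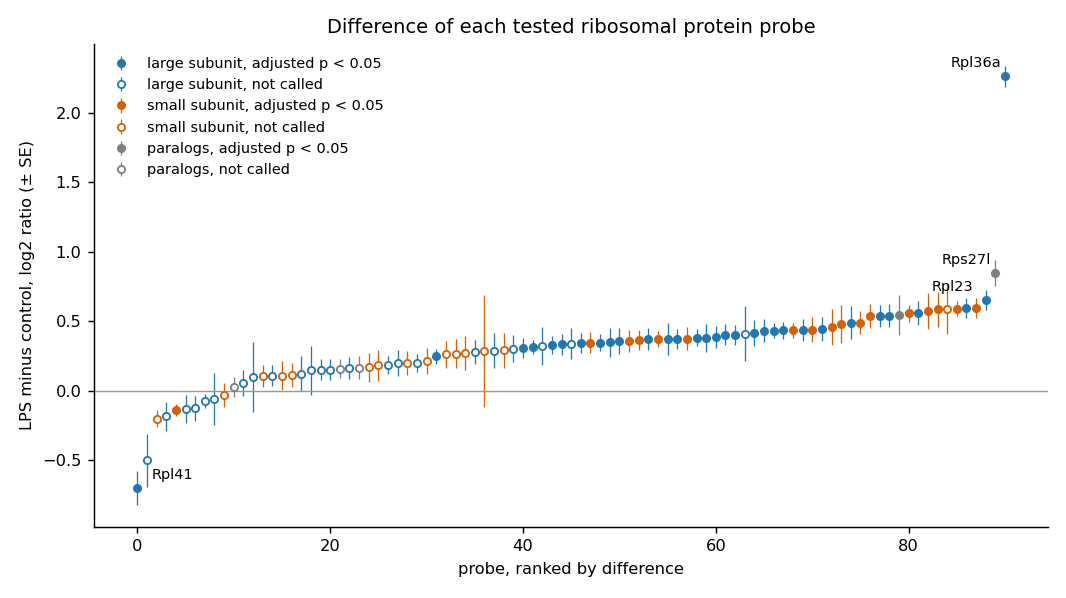
Difference in log2 ratio, LPS minus control (vertical axis, with its standard error), for the 91 tested ribosomal protein probes ranked from lowest to highest (horizontal axis). Filled points passed an adjusted p of 0.05; most lie between 0.25 and 0.65, with Rps27l at 0.84 and 1 Rpl36a probe at 2.26 standing apart at the top and 1 Rpl41 probe at -0.70 at the bottom.

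The largest difference by far was in Rpl36a, a protein of the large subunit near the exit site for transfer RNA. In the liver channel its probe AI574971 read 1.29, 1.45, 1.45 and 1.41 units in controls and 7.12, 6.25, 7.33 and 7.10 after LPS. The pool channel of the same probe stayed between 1.32 and 1.53 units on all 8 arrays, so the groups were far apart in the liver and mixed in the pool. Its log2 ratio was higher by 2.26 ± 0.08 (SE, n = 4 and 4; 4.79-fold; limma adjusted p = 1.57e-05). It was also the sole member to pass a test against a 1.5-fold change, which 1.25% of all probes passed as higher. A second Rpl36a probe, ENSRNOT00000036581, read 2.84, 3.33, 2.81 and 3.05 units in control livers and 3.37, 2.68, 3.52 and 2.89 after LPS, and these groups overlap. Its ratio was higher by 0.41 ± 0.09 (limma adjusted p = 0.0154), with the pool at 2.68 to 3.32 units on control arrays and 2.04 to 2.44 on LPS arrays. The probes of Rpl36a therefore disagree in size (4.79-fold against 1.33-fold), and AI574971 is an expressed sequence tag whose symbol comes from the authors' table alone.

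Rps27l, a paralog of Rps27 that is a p53 target in human cells, had the next largest difference. Its liver intensities were 16.98, 17.65, 16.1 and 14.5 units in controls and 28.6, 24.7, 24.5 and 27.4 after LPS. The lowest LPS liver lay well above the highest control. The ratio was higher by 0.84 ± 0.09 (1.80-fold; limma adjusted p = 0.000845). Its parent Rps27 had a difference of 0.11 and did not pass (limma adjusted p = 0.488). Rpl22l1, the paralog of Rpl22, was higher by 0.55 ± 0.14 (limma adjusted p = 0.0289; lost without any 1 of 5 arrays) at only 0.17 to 0.31 units in the liver channel, while the Rpl22 probes differed by 0.20 and 0.19 and did not pass. Rpl36al, Rpl3l and Rpl7l1 differed by 0.17, 0.16 and 0.03 and did not pass.

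Among core proteins of the large subunit, Rpl23, which can bind MDM2, read 0.66, 0.67, 0.66 and 0.69 units in control livers and 1.00, 1.11, 1.04 and 0.92 after LPS. The groups did not overlap, and the ratio was higher by 0.65 ± 0.07 (limma adjusted p = 0.000882). Rpl3, which reaches the peptidyl transferase centre, read 9.43, 12.6, 12.2 and 10.1 units in controls and 16.7, 17.05, 14 and 14.4 after LPS. Every LPS liver exceeded every control, and its ratio was higher by 0.56 ± 0.09 (limma adjusted p = 0.00338). Rpl27a was higher in ratio by 0.60 ± 0.07 (limma adjusted p = 0.00115), with livers of 13.5 to 15.2 units in controls and 15.2 to 19.03 after LPS. Its pool readings were 13.6 to 15.8 units on control arrays and 10.2 to 11.7 on LPS arrays, so both channels contributed to that ratio.

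The stalk protein Rplp1, which recruits translation factors to the ribosome, was higher by both of its probes (0.43 and 0.31). The probe of its partner Rplp2 read at most 0.10 units in the liver and differed by -0.07, without passing. Rpl4, which lines the exit tunnel, was higher in ratio by 0.38 ± 0.06 (limma adjusted p = 0.00394) although its liver readings were 23.8, 23.5, 18.1 and 24.9 units in controls and 20.6, 21.7, 17.2 and 20.1 after LPS. Those groups overlap, and the LPS readings are if anything lower. Its pool readings were 18.1 to 26.3 units on control arrays and 12.9 to 16 on LPS arrays, a difference that did not pass after adjustment (limma adjusted p = 0.0678). Rpl13a, known for a role in silencing inflammatory messages in human monocytes, was higher by 0.38 ± 0.10 (limma adjusted p = 0.0321), a call lost without any 1 of 6 arrays. Rpl5, which carries the 5S ribosomal RNA, differed by 0.15 ± 0.07 and did not pass (limma adjusted p = 0.176).

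In the small subunit, Rps6, the classic substrate of the S6 kinases, was higher by both of its probes. The brighter one read 7.0, 6.99, 7.24 and 9.20 units in control livers and 10.5, 10.6, 10.7 and 9.67 after LPS. Control array 4 came closest to the LPS arrays without reaching them. The ratio differences were 0.60 ± 0.07 (limma adjusted p = 0.00122) and 0.54 ± 0.09 (limma adjusted p = 0.00397). Rps15a read 22.8, 23.2, 25.5 and 23.2 units in controls and 35.4, 34.6, 26.9 and 31.2 after LPS, with LPS array 3 nearest the controls. Its ratio was higher by 0.59 ± 0.05 (limma adjusted p = 0.000463). Rps19, mutated in human Diamond-Blackfan anaemia, was higher by 0.49 ± 0.08 (limma adjusted p = 0.00527), and Rps27a, made as a fusion with ubiquitin, by 0.37 ± 0.06 (limma adjusted p = 0.00439).

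Rps26 and Rps24 rose in ratio while the liver readings of the groups overlapped. Rps26 (probe NM_013224) read 9.39, 12.9, 10.1 and 9.90 units in control livers and 12, 11.1, 8.2 and 9.44 after LPS. The pool beside it read 10.01, 10.3, 9.62 and 11.6 units on control arrays and 7.47, 6.73, 5.52 and 6.97 on LPS arrays. The separation of the groups thus lay in the pool, and the ratio was higher by 0.59 ± 0.13 (limma adjusted p = 0.0136), with 0.57 by the second probe. Rps24 (probe RNS00042931.1) was higher in ratio by 0.56 ± 0.06 (limma adjusted p = 0.000941) with control livers of 1.11 to 1.70 units and LPS livers of 0.95 to 1.40.

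Rps14, lost in the human 5q- syndrome, differed by 0.10 and 0.11 by its probes and did not pass. Rpsa, the laminin receptor precursor, was dim (0.11 to 0.14 units in the liver) and differed by 0.26 without passing (limma adjusted p = 0.0885). Rps18, often used as a reference in PCR, was measured by a single dim probe with liver readings of 0.16, 0.05, 0.07 and 0.05 units in controls and 0.10, 0.14, 0.14 and 0.10 after LPS. It counts among the 2 members called lower (-0.14 ± 0.04, limma adjusted p = 0.0481), on readings in which the channels differ by at most 0.01 units; the liver intensities of the groups overlap, and the call was lost without any 1 of 7 arrays. Rps4y2, related to Rps4x, had the widest error of the members (0.29 ± 0.40), with LPS livers from 0.84 to 2.85 units, and did not pass.

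Rpl41, a very short peptide of the large subunit, was called in both directions. Probe RNS00016900.1 read 1.80, 2.20, 2.49 and 1.77 units in control livers and 1.52, 1.42, 1.01 and 1.16 after LPS, and every LPS liver lay below every control. Its ratio was lower, at -0.70 ± 0.12 (1.62-fold lower; limma adjusted p = 0.00527). Probe NM_139083, near the top of the scale, read 44.0, 38.1, 46.3 and 44.7 units in controls and 50.1, 55.1, 46.8 and 53.2 after LPS. Its ratio was higher by 0.44 ± 0.09 (limma adjusted p = 0.00987), and another probe at about 0.05 units differed by -0.18 and did not pass. Which of these probes reports the Rpl41 message was not tested; the accession of NM_139083 carries the symbol Rpl41 in the GRCr8 gene table, while the other accessions are not RefSeq ones.

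**Figure D3:**
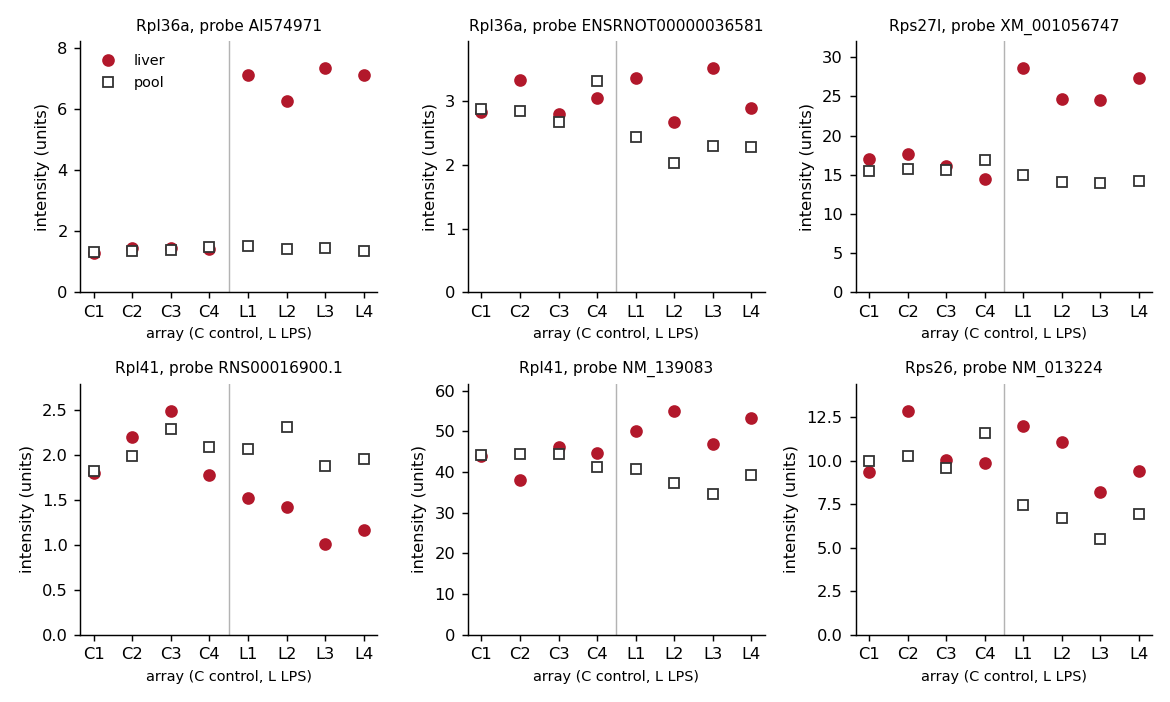
Deposited intensity in arbitrary units (vertical axes, from 0) of 6 probes on control arrays (C1 to C4) and LPS arrays (L1 to L4), with filled circles for the liver channel and open squares for the pool channel. In Rpl36a AI574971, Rps27l and Rpl41 RNS00016900.1 the liver channel separates the groups, whereas in Rps26 the pool channel separates them and the liver channel overlaps.

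Symbols with several probes could be compared within the array. Of 20 symbols with several tested probes, 17 had the same sign in all of them. In 15 all probes were called alike, which includes symbols with no called probe. Of all 91 tested members 81 had a positive difference, so a shared sign was common whichever members were compared. All 4 Rpl9 probes were called higher (0.54, 0.43, 0.35 and 0.33), as were all 3 tested Rpl38 probes (0.43, 0.40 and 0.39), both Rps2 probes (0.44 and 0.37), both Rps20 probes (0.46 and 0.43) and both bright Rpl23a probes (0.37 and 0.35). Each of these Rpl23a calls was lost without any 1 of 7 arrays, and that of the dim Rps20 probe (0.46) without any 1 of 5. None of the tested probes passed for Rpl15 (0.16 and 0.11), Rpl21 (0.41 and 0.12), Rpl35a (0.15 and 0.10), Rpl39 (0.32, 0.29 and 0.06) or Rps29 (0.29 and 0.27). Splits occurred mostly between a bright and a dim probe. The bright Rpl31 probe was higher by 0.33 while its dimmer probes differed by -0.13 and -0.50 without passing, a dim Rpl23a probe differed by -0.13, and a dim Rps27a probe by 0.17. Rps24 was an exception, since probe AA997138 at about 43 units differed by 0.59 with a wide error (SE 0.18, limma adjusted p = 0.0543).

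Other core members followed the same range. Called higher with differences of 0.3 to 0.5 were, among others, Rpl29 (0.49), Rpl28 (0.43), Rpl10a (0.40), Rpl37a (0.37), Rpl18 (0.37), Rps9 (0.37), Rpl30 (0.36), Rps13 (0.36), Rps15 (0.35) and Rpl7a (0.31), and Rpl13 reached 0.54 and Rpl7 0.25. For Rpl7, however, every LPS liver (1.33 to 1.64 units) read below every control liver (1.71 to 2.09). Its pool read 1.16 to 1.37 units on LPS arrays and 1.68 to 2.03 on control arrays. Leaving out single arrays ended 10 of the 50 calls at least once, among them those of Rpl7a, Rpl13a, Rpl22l1, Rpl23a (both), Rpl29, Rpl30, Rps18 and the dim Rps20 probe. Among those not passing were Rpl26 (0.34), Rpl32 (0.30), Rpl35 (0.28), Rps4x (0.27), Rps3a (0.21), Rpl34 (0.20), Rps7 (0.18), Rpl36 (0.15) and Rpl24 (-0.06), and the dim probes Rps12 CB313068 (-0.03) and Rps28 XM_344537 (-0.20).

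The 13 untested members were blank on too many arrays. Of these, 12 read 45.4 to 52.9 units on average, near the top of the scale, and lacked values mainly on control arrays and on LPS array 1. They were probes of Rpl13, Rpl14, Rpl19, Rpl27, Rpl38, Rps12 (both bright probes), Rps21, Rps23, Rps24 and Rps28 (both bright probes). Rpl13 NM_031101 had a log2 ratio of -0.06 on control array 1 and of 0.59, 0.49 and 0.43 on LPS arrays 2 to 4. Rpl19 gave -0.28 and then 0.31, 0.28 and 0.19, and Rps23 gave -0.11 and then 0.38, 0.24 and 0.54, each LPS value being above the lone control. Rpl27 gave 0.19 and then 0.19, 0.11 and 0.16, with no such gap. The 13th, Rps2 CA508522, was blank on LPS arrays 2 to 4. These values have no test, and the blanks leave out some of the brightest ribosomal protein probes.

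The second question was whether the difference was present in the liver channel without the pool. After quantile normalization between arrays it was largely not detectable there. Only 7 of 91 members were called higher and 1 lower in the liver channel, beside 7.12% and 10.3% of all probes. The share of members called higher (7.69%) was thus near that of all probes, and the share called lower (1.1%) was smaller. All LPS livers exceeded all controls in 15 members and fell below them in 2 (Rpl7 and Rpl41 RNS00016900.1), beside 9.44% and 13.3% of all probes. The median difference in log2 liver intensity was 0.06, beside -0.02 over all probes. Its direction depended on scaling: it was -0.12 after scaling arrays to a common median (all probes -0.01), and unscaled it was 0.14 while all probes stood at 0.24. Of the 48 probes called higher in ratio, 39 had a positive and 9 a negative liver difference.

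The members called higher in the liver channel were Rpl36a AI574971 (2.35 ± 0.11), Rps27l (0.66 ± 0.13), Rpl23 (0.58 ± 0.11), Rps6 NM_017160 (0.49 ± 0.12), Rpl3 (0.49 ± 0.14), Rps2 U92698 (0.48 ± 0.11) and Rps15 (0.41 ± 0.11), on the log2 scale with their standard errors. Rpl41 RNS00016900.1 was called lower (-0.68 ± 0.18). All of these were also called in the ratio, in the same direction. Under 12 alternative settings of the liver comparison, Rpl36a AI574971 was called in each, and Rps27l and Rpl23 in 10, losing their calls with median scaling and with a term for the pool's array sets. Rps2 and Rpl41 were called in 6, Rpl3 and Rps6 in 4 and Rps15 in 3, with losses that included single arrays left out. Rps15, for example, read 1.69, 1.98, 1.86 and 1.81 units in control livers and 2.51, 2.37, 2.32 and 2.43 after LPS, groups that do not overlap, yet lost its call without most single arrays.

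The pool channel was then compared between LPS arrays and control arrays in the same way, as the background of the liver channel, since the same kind of control RNA was read on every array. Ribosomal protein probes read lower in the pool on LPS arrays. No member passed after adjustment by limma, among 6 probes called higher and 3 lower in all (0.0256% and 0.0128%). At an unadjusted p under 0.05, however, 55 members were lower and 0 higher, beside 18.9% and 7.42% of all probes. After quantile normalization, the pool value of every LPS array lay below that of every control array in 40 members, beside 12.7% of all probes. In 1, Rps15, every LPS array lay above on that scale, beside 2.91%. Its deposited pool readings overlap, at 1.71 to 1.91 units on control arrays and 1.84 to 1.88 on LPS arrays. The median pool difference was -0.24, beside -0.05 over all probes.

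Leaving out probes with a mean under 0.1 units in either channel, 31 members were called lower in the pool and 0 higher, beside 9.79% and 1.31% of the probes kept. The count after adjustment was 26 without control array 1 and 19 without LPS array 1, beside 7.85% and 3.1% of all probes called lower in the same fits, and 0 when any other single array was left out. On the quantile scale, relative to each probe's control mean, the members' median pool reading was -0.11, 0.01, -0.03 and 0.12 on control arrays 1 to 4 and -0.11, -0.28, -0.33 and -0.29 on LPS arrays 1 to 4. Control array 1 and LPS array 1 were nearly level, and LPS arrays 2 to 4 were the lowest.

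The corresponding liver medians were -0.12, 0.12, -0.01 and 0.03 on control arrays and 0.19, 0.06, 0.01 and 0.01 on LPS arrays. In the liver the groups overlapped, with LPS array 1 highest and control array 2 above the 3 other LPS arrays. Taken without scaling, the members' median difference was 0.14 in the liver and -0.16 in the pool, with 64 of 91 members above 0 in the liver and 74 below 0 in the pool. Over all probes the unscaled medians were 0.24 in the liver and 0.16 in the pool. Relative to all probes, the members thus stood at -0.10 in the liver and -0.32 in the pool without scaling, and at 0.08 and -0.19 after quantile normalization. On both scales their larger departure from all probes lay in the pool, but all probes are mostly dimmer than the members. Beside other probes of like brightness the order was reversed on the quantile scale. At 10 units and over, members and other probes had liver medians of 0.02 and -0.27 and pool medians of -0.38 and -0.26. At 1 to 10 units these were 0.13 and -0.07 in the liver and -0.14 and -0.07 in the pool. What lowered the pool reading on LPS arrays was not tested.

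**Figure D4:**
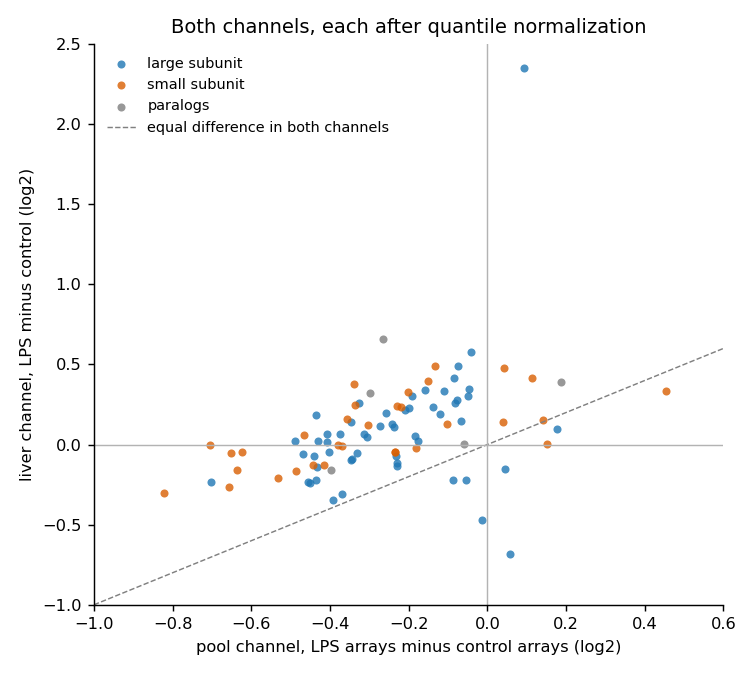
Difference in log2 intensity between LPS and control arrays in the liver channel (vertical axis) against that in the pool channel (horizontal axis), each after quantile normalization, for the 91 tested ribosomal protein probes. The points lie mainly left of 0 (80 below 0 in the pool) and above the dashed line of equal difference, with liver differences on both sides of 0 (54 positive, 37 negative), and Rpl36a AI574971 stands apart at 2.35.

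The pool was lowest for Rps24 RNS00042931.1 (-0.82), Rps24 AA997138 (-0.70), Rpl4 (-0.70), Rps4x (-0.66), Rps26 (-0.65 and -0.62) and Rps2 AI704328 (-0.64), on the quantile scale. Rps2 shows how probes of a gene divide on this point. Probe AI704328 was higher in ratio by 0.37 with a liver difference of -0.16, whereas probe U92698 was higher in ratio by 0.44 with a liver difference of 0.48 and a pool difference of 0.04.

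Bright probes of other genes shared the lower pool reading but not the higher ratio. The 490 other probes with a mean of at least 10 units had a median pool difference of -0.26 and a median liver difference of -0.27. The 44 members that bright had -0.38 in the pool and 0.02 in the liver. In the liver channel, 2 of those 44 were called higher and 0 lower, beside 7.14% and 34.9% of the other bright probes.

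The array sets seen in the pool bear on the same result. Set 1 holds control array 1 and the 4 LPS arrays, and set 2 holds controls only, so a within-set value rests on a single control. Within set 1 the members' median difference was 0.35 in ratio (82 of 91 above 0), 0.19 in the liver (72 above 0) and -0.16 in the pool (20 above 0). Since set 2 has no LPS array, a fit with a term for the set compares the LPS arrays with control array 1 alone and takes its spread from all arrays. In it 13 members were called higher in ratio and 0 lower, beside 4.65% of all probes called higher, and the median was 0.35, beside 0.34 without the term, so calls were lost with little change in the median. Both this term and quantile normalization of the ratios kept the calls of 11 probes, those of Rpl36a (AI574971), Rps27l, Rpl23, Rpl27a, Rpl13, Rplp1 (RNS00001349.1), Rps6 (both), Rps15a, Rps20 (BQ207579) and Rps24 (RNS00042931.1). Other calls named here, such as those of Rpl4, Rps19, Rps26, Rps27a and Rpl41, were lost under each of them.

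Genes that act with the ribosomal proteins were then counted, beside 12.4% of all probes called higher in ratio and 12.5% called lower. Mitochondrial ribosomal proteins, which build the separate ribosome of mitochondria, had 26 of 72 probes called higher and 4 lower in ratio, with a median of 0.20. Mrpl17 (0.89 ± 0.07, limma adjusted p = 0.000259) and Mrps16 (0.72 ± 0.10) were the largest rises, and Mrpl48 (-0.37) and Mrpl37 (-0.35) the largest falls. In the liver channel 4 of these probes were called higher and 3 lower (5.56% and 4.17%, beside 7.12% and 10.3% of all probes), and their median pool difference was -0.09. Their median thus lay between that of the cytosolic set and that of all probes, and the difference between the sets was not tested.

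Ribosome biogenesis factors had 15 of 63 probes called higher and 5 lower (median 0.09), led by Nhp2 of the H/ACA particles (1.02 ± 0.08, limma adjusted p = 0.000271) and Rrp1b (0.97), with Sbds (-0.56) and Gnl3 (-0.52) lowest. RNA polymerase I machinery, which transcribes ribosomal RNA, had 2 of 18 probes called higher and 1 lower (median 0.04). The share called higher (11.1%) was near the 12.4% of all probes. The largest subunit of this polymerase, Polr1a, rose by 0.50 ± 0.06 (limma adjusted p = 0.00112). Translation factors and other genes with oligopyrimidine messages had 7 of 25 probes called higher and 4 lower (median 0.06). The largest rises there were Vim (1.59) and Hnrnpa1 (1.56), which encode an intermediate filament and an RNA-binding protein, and Eif4b fell by both probes (-1.04 and -0.37).

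Genes of the mTOR and S6 kinase pathway had 2 of 28 probes called higher and 5 lower (median -0.02). These shares were 7.14% and 17.9%, beside 12.4% and 12.5% of all probes. Sesn1, a stress-induced inhibitor of mTORC1, rose by 0.83 ± 0.10 (limma adjusted p = 0.00143) and the kinase Rps6ka3 by 0.66, while Pdcd4, an S6 kinase target that restrains translation, fell by 0.60 and Rps6kc1 by 0.55. Of 9 probes of MYC, which drives ribosome production in growing cells, and of related genes, none was called lower, and the probe called higher was that of Mxd1 (0.36), which encodes a MAX partner that opposes MYC. Beside these, the cell type markers had 10 of 20 probes called higher for neutrophils and monocytes (S100a9 by 4.8 and S100a8 by 4.31; Prtn3 was called lower), 9 of 23 for T and NK cells (Gzma by 1.40) and 1 of 8 for B and plasma cells. Of 7 Kupffer cell probes 3 were called lower (Clec4f by -2.30), and of 9 tested hepatocyte probes 2 were called higher and 5 lower.

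**Figure D5:**
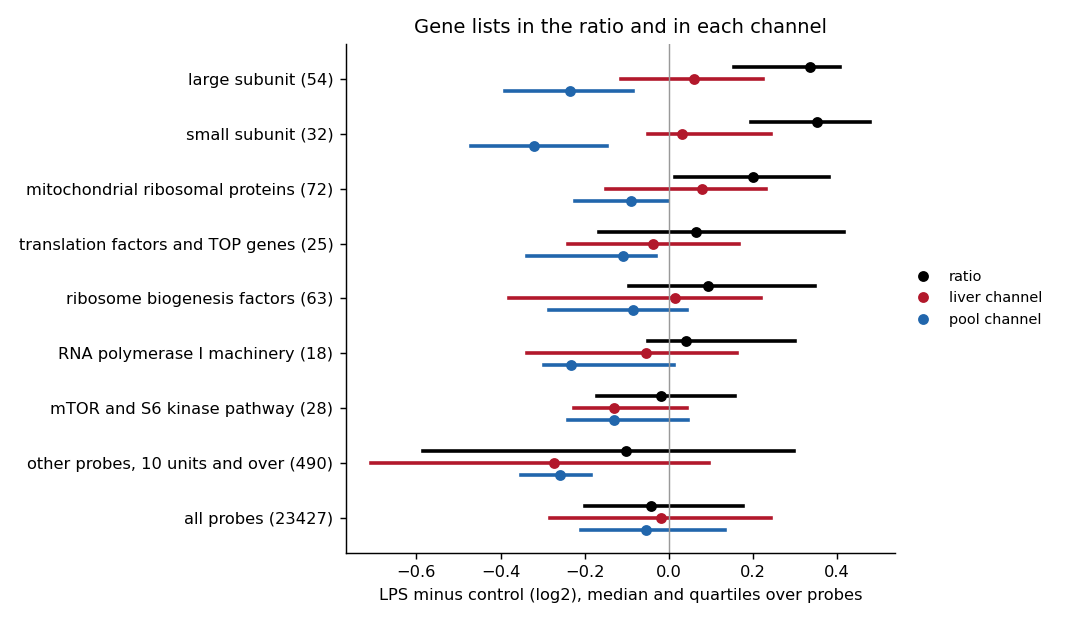
Median (point) and quartiles (bar) over probes of the difference between LPS and control arrays on the log2 scale (horizontal axis), for 9 sets of probes with their number in brackets (vertical axis), in black for the ratio, red for the liver channel and blue for the pool channel. Both ribosomal subunits have ratio medians of 0.34 and 0.35, liver medians near 0.06 and 0.03 and pool medians of -0.23 and -0.32.

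Members with and without the start tract were compared last. Of 30 tested probes of members with a C and 4 pyrimidines on the annotated start, 13 were called higher (median 0.28), and of 45 probes of members with a promoter in the table but no such tract, 27 were called higher (median 0.38). With the tract allowed within 10 bases of the start, 33 of 60 probes with it (median 0.35) and 7 of 15 without it (median 0.31) were called higher. The order of these medians changes with the window, and no test was made.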

How the data were processed

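The authors deposited a table of linear intensity values for the liver (Cy5) and pool (Cy3) channels of each array, and the submitters' processing notes name Agilent Feature Extraction 8.5.1.1. How background, dye bias and saturated spots were handled is not given in the sources used here. Amplification started from 100 ng of RNA, per the labels. The deposited value table of log10 ratios, with columns named by sample, matched the ratios of this table (r at least 0.999999 for each array), which settles its direction. Converted from log10 to log2, it gave a median difference over members of 0.3378, beside 0.3381 from the ratios used here, which settles its scale. It had column medians of 0, and whether it was centred is unknown. The pool columns, recorded as of no sample, hold other intensity values deposited by the authors in the same units.

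From these, log2(liver/pool) as deposited, and each channel's log2 intensity after quantile normalization, entered a limma fit per probe (version 3.58.1, R 4.3.3; eBayes without trend or robust options) over 23427 probes with at least 3 values per group, with Benjamini-Hochberg adjustment and a threshold of 0.05. The methods were tested on simulated data. Members, gene lists and tests were chosen with earlier results of these data known. Named probes are the 10 largest rises and the falls among called members, all symbols with several probes, a set of members of known function whatever their result (some members are counted but not reported here by name), and up to 2 largest rises and 2 largest falls of each other list. Medians over members carry no test. Of 46 member probes with a RefSeq accession, 42 were found in the GRCr8 gene table and 41 had the same symbol there. Promoter windows are from RefSeq, GRCr8. The precision is limited by 4 arrays per group. Other settings were robust or trended moderation, centring, quantile normalization or array weights for the ratios, filters on dim, bright or incomplete probes, averages per symbol, a 1.5-fold test, the deposited log10 ratios, and single arrays left out. Summaries and plots used Python 3.11.15 with pandas 2.3.3, numpy 2.4.6 and matplotlib 3.10.9.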

Additional observations from a re-analysis of the deposited data

Results flagged for a closer look

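Of 186 sets of 4 arrays checked (a tested member probe within a group, and 6 medians over members or a subunit), 13 held an array whose log2 ratio stood far from the other 3, all of them single probes. By the criterion used, chance picks out about 1 in 20. On LPS array 2 these were Rpl3 (0.72, others 0.52 to 0.54), Rpl22 by both probes (0.31 and 0.31, others 0.17 to 0.19), Rpl15 NM_139114 (0.19, others 0.09 to 0.11) and Rpl35a NM_021264 (0.74, others -0.21 to -0.05), each above the other LPS arrays. The Rps28 probe XM_344537 read -0.13 there, against -0.15 on the others. On control array 2 they were Rpl13 RNS00185757.1 (0.22, others -0.06 to -0.03), Rps2 AI704328 (0.24, others -0.06 to -0.02) and Rps28 XM_344537 (0.22, others 0.00).

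The remaining ones were dim probes whose other 3 arrays read the same in both channels, a log2 ratio of 0.00. They were Rps18 BQ201776 on control array 1 (0.0931), Rpl31 600507117R1 on control array 3 (0.32), Rpl39 RNS00032687.1 on control array 4 (0.26) and Rpl41 CB569624 on LPS array 1 (0.26). LPS array 2 and control array 2 also had the highest median member ratio of their groups, at 0.45 and 0.13.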

How the results depend on the processing

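For the ratio, 48 members higher and 2 lower became 13 and 0 after quantile normalization of the ratios (median 0.24; 4.03% of all probes called higher), 13 and 0 with a term for the pool's array sets, and 1 and 0 against a 1.5-fold change. The count lower was 1 with robust moderation, without dim probes and with the replicate block, where Rps18 was lost, and 1 with probes averaged per symbol, where Rps18 was kept and Rpl41 (-0.15) lost. The replicate block, on the deposited log10 ratios, gave 45 higher and 1 lower (median 0.33) and lost 7 calls. The deviations of same-numbered samples from their group means correlated at -0.01, -0.01, 0.03 and 0.17. These values cannot settle whether such samples were paired. Averaged per symbol, 33 of 64 were higher and large minus small was 0.054. Leaving out single arrays gave 40 to 53 higher, 1 to 3 lower (3 without control array 2 and 1 without each other array), medians of 0.29 to 0.37 and large minus small of -0.0317 to 0.00775. Without LPS array 1 and control array 2 together, 47 were higher (median 0.38). Alternatives chosen after seeing the data were the array-set term, this pair and no scaling of channels.

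In the liver channel, median scaling left 1 called higher with a median of -0.12, the array-set term 1 higher and 0 lower (median 0.19), and no scaling 11 higher. Single arrays left out gave 3 to 6 higher (3 without LPS array 2 and also without LPS array 4, 4 without control array 3 and also without LPS array 1), 0 to 1 lower (0 without control array 2, control array 3 or any of LPS arrays 2 to 4) and medians of 0.01 to 0.10. In the pool, the median was -0.39 with median scaling, 31 were lower without dim probes, and single arrays left out gave 0 to 26 lower, 0 to 1 higher and medians of -0.32 to -0.23. Probes that changed sign, none of them called, were Rpl39 RNS00032687.1 (-0.0185) and Rps12 CB313068 (0.0296) after quantile normalization, Rps12 CB313068 also without control array 2 (0.0428, in a range of -0.0721 to 0.0428 over single arrays left out; 0.0633 with LPS array 1 out too), Rpl35a NM_021264 without control array 4 (-0.0696) or LPS array 2 (-0.119; the highest was 0.2005, without LPS array 4), Rpl24 with array weights (0.00984) and without control array 3 (0.0817; lowest -0.2465 over single arrays), Rpl7l1 without control array 1 (-0.0204; highest 0.0673) and Rpl31 RNS00023912.1 with the array-set term (0.15). The causes were not tested.

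Of the 50 calls in ratio, quantile normalization lost 37, the array-set term 37, the 1.5-fold test 49 and single arrays 3 to 9 each. The limits are 4 arrays per group, blanks that remove the brightest probes, 2 decimals that coarsen dim members, a pool that differs between array sets, and conflicting doses.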
